A study of Mus musculus with 6 samples.

Results

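Guanylate-binding proteins (GBPs) and immunity-related GTPases (IRGs) were followed through 9 genes of the 32285 in the deposited matrices: Gbp2, Gbp3, Gbp4, Gbp5, Gbp6, Gbp7, Igtp, Irgm1 and Iigp1. They were listed by name, with earlier results of these data known, and all 9 had at least 100 UMIs in each comparison of T cells. The counts are UMIs (unique molecular identifiers), each standing for 1 captured RNA molecule. The series compares T cells of a brain tumor at an early and a late time point. CT2A, a mouse glioma line, was grown in the brains of wild-type C57BL/6J mice aged 6-8 weeks, and CD3+ cells were sorted from the tumors at day 13 and at day 19. Per the series description, 16 mice were used at day 13 in pools of 4, and 4 mice were used at day 19, and the sort took CD3+ cells with either CD4 or CD8. RNA was captured at its 5' end in droplets, in 1 capture per day. All mice in both groups carried the tumor, so no tumor-free control enters the comparisons.

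Barcodes with at least 5000 gene UMIs and at most 10% mitochondrial UMIs were kept, 8878 at day 13 and 4667 at day 19, and 62 barcode sequences were kept on both days. A T cell receptor (TCR) contig table lists the receptor sequences assembled per barcode. There were 4 such tables per day, and the barcodes of 1 table are called a contig set. CD8 and CD4 T cell barcodes are those inside a contig set with a UMI of 1 coreceptor and none of the other. There were 2959 CD8 and 797 CD4 barcodes at day 13, with medians of 7449 and 8492 UMIs. At day 19 there were 1800 and 794, with medians of 9846 and 10542 UMIs. With 1 capture per day there is no replicate check on a difference between the days, and day and capture cannot be told apart. No p-value is given. Levels are in CPM, the usual depth-scaled unit, from the gene's UMIs and all gene UMIs summed over a group. Intervals are exact 95% intervals that cover counting error only, and ranges over the 4 sets are given as a description. The labels do not say whether a set is a separate pool or mouse, so the sets are not used as replicates.

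Cells other than T cells were present after the CD3 sort. At day 13, 1017 kept barcodes outside the contig sets had no UMI of Cd3d, Cd3e or Cd3g, and at day 19 there were 343. RNA of myeloid cells also lay in T cell barcodes. All 11 genes of a list of myeloid markers were detected in both classes on both days, and none was at 0. At least 3 UMIs of the list were found in 18.89% of CD8 and 53.45% of CD4 barcodes at day 13, and in 30.83% and 65.87% at day 19. The summed level of the list was 2853 CPM in CD8 (2198 to 4526 over sets) and 11200 CPM in CD4 (9248 to 13930) at day 13. It was 3458 CPM (2494 to 6579) and 12250 CPM (10750 to 20740) at day 19. Barcodes with myeloid RNA were also deeper, with a median of 12104 UMIs in CD8 at day 13. The main results are also given without barcodes that held 3 or more myeloid UMIs. Free RNA, measured in barcodes of 10 to 100 UMIs, held the 9 genes at 1499 CPM at day 13 and 938.5 CPM at day 19, in the range of the T cell barcodes.

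GBPs are large GTPases that assemble on membranes around intracellular bacteria and parasites and open them to attack. Among the IRGs, Irgm1 and Igtp (also called Irgm3) sit on the cell's own membranes and hold effector GTPases such as Iigp1 (Irga6) in check, and the effectors coat the vacuole of a parasite. Interferon gamma switches both families on, in part through a palindromic DNA element named GAS. Type I interferon acts mainly on another element, the ISRE, which IRF1 also binds. Ifit1, which binds foreign RNA, and Isg15, a ubiquitin-like modifier, are standard readouts of type I interferon and serve here as the comparison in the same cells.

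The genes lie in few places of the genome (GRCm38.p6). Gbp5, Gbp7, Gbp3 and Gbp2 follow each other on chromosome 3 between positions 142496934 and 142638008. Gbp4 (105115767 to 105139586) and Gbp6 (105270702 to 105295871) lie on chromosome 5. Irgm1 (48865245 to 48871420) and Igtp (58199556 to 58207592) lie on chromosome 11. Promoters of 6 of the 9 genes were taken from the RefSeq table of that build. None was matched for Gbp4 and Gbp6. Iigp1 was left out of the positions and promoters given here. The windows of 250 bases before to 50 after each annotated start were searched on both strands for the GAS core TTCNNNGAA and the ISRE core GAAANNGAA. A GAS core was in 8.30% of all 32851 promoters of the same length, an ISRE core in 8.56%, and both in 1.07%. The ISRE core was in all 6 members used, where Gbp3 had it in the first of 2 entries only. The GAS core was in 3 of them, Gbp5, Gbp7 and Igtp. The Ifit1 and Isg15 promoters each held 3 ISRE cores and no GAS core. The 170 bases before the start of 5 members and of Ifit1 and Isg15 are shown because they set promoters with both elements (Gbp5, Gbp7 and Igtp) beside those with ISRE cores alone. Capitals mark the cores, overlapping ones run together, and every sequence is written 5' to 3' along the gene's strand.
Gbp2: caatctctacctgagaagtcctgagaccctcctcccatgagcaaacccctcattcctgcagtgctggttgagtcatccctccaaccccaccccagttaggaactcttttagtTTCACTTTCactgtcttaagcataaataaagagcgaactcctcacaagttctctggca
Gbp5: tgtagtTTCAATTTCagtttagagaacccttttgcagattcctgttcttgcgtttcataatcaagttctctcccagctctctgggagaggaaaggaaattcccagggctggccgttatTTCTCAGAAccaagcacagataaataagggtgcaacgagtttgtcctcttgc
Gbp7: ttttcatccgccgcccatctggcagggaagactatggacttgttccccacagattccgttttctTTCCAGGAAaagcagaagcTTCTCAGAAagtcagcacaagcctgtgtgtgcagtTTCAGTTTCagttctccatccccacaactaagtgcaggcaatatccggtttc
Igtp: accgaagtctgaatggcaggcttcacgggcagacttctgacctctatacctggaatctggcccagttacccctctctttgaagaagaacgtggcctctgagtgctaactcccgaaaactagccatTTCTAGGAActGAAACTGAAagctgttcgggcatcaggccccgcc
Irgm1: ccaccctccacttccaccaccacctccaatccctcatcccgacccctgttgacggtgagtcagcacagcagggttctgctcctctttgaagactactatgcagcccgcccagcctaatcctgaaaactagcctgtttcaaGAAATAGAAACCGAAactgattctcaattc
Ifit1: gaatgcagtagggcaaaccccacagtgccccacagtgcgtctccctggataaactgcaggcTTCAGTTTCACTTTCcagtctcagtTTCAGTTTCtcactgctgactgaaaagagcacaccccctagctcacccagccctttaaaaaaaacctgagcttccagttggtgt
Isg15: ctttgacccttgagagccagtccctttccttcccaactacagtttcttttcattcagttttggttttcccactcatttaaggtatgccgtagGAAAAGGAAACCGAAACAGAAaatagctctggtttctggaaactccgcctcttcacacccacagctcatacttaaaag
These stretches are chr3:142620493-142620662 for Gbp2, chr3:142496764-142496933 for Gbp5, chr3:142530166-142530335 for Gbp7 and chr11:58199386-58199555 for Igtp, all on the plus strand. Those of Irgm1 (chr11:48871421-48871590) and Isg15 (chr4:156200819-156200988) are on the minus strand, and that of Ifit1 (chr19:34640719-34640888) is on the plus strand. Counted from the start, the first base of the ISRE core is at -58 in Gbp2, -164 in Gbp5, -52 in Gbp7, -34 in Igtp and -30 and -24 in Irgm1. In the first Gbp3 entry, cores at -44 and -38 overlap. The GAS cores begin at -52 in Gbp5, at -106 and -87 in Gbp7 and at -45 in Igtp, and Gbp5 holds another at -245, outside the printed stretch. Outside the members, Irgm2, Tgtp1 and Tgtp2 hold a GAS core shortly before an ISRE core as Igtp does, at -75 and -64 in Irgm2. Of the other family genes searched, Gbp2b holds an ISRE core and no GAS core, and Ifi47 holds neither. A match of letters is a description of the window and not a measured binding site.

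The first comparison was between the days. In CD8 T cells the day-19 level of each of the 9 genes was below that of day 13, by 1.64-fold for Gbp6 to 2.12-fold for Gbp2. Their summed level was 1418 CPM at day 13 and 784.7 CPM at day 19, a log2 ratio of -0.85 (interval -0.88 to -0.83). In CD4 T cells all 9 were lower too. Their sum there was 1688 CPM at day 13 and 1207 CPM at day 19, with a smaller log2 ratio of -0.48 (-0.52 to -0.45). The threshold of 1.5-fold lower was met by 9 of 9 members in CD8, where 6.61% of the 10638 genes with at least 100 UMIs met it. It was met by 2 of 9 in CD4, Gbp4 and Irgm1, where 5.62% of 9426 genes met it. A ratio below 0 of any size was found for 47.3% of genes in CD4 and for 9 of 9 members. The median log2 ratio of the members was -0.80 in CD8, against -0.04 over all genes tested, and -0.50 in CD4, against 0.02.

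Without barcodes that held myeloid RNA the CD4 difference was larger. The sum of the 9 then differed by a log2 ratio of -0.81 (-0.88 to -0.74) in CD4 and -0.87 (-0.90 to -0.83) in CD8, and the gap between the classes in this ratio went from -0.37 to -0.06. In these CD4 barcodes all 9 members were at least 1.5-fold lower, where 5.68% of 5964 genes were. The members' median log2 ratio was -0.70 in CD4 and -0.82 in CD8. The share of T cell barcodes with myeloid RNA was higher at day 19 in both classes, as given above. Whether the ratios of both classes differ was not tested.

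**Figure D1:**
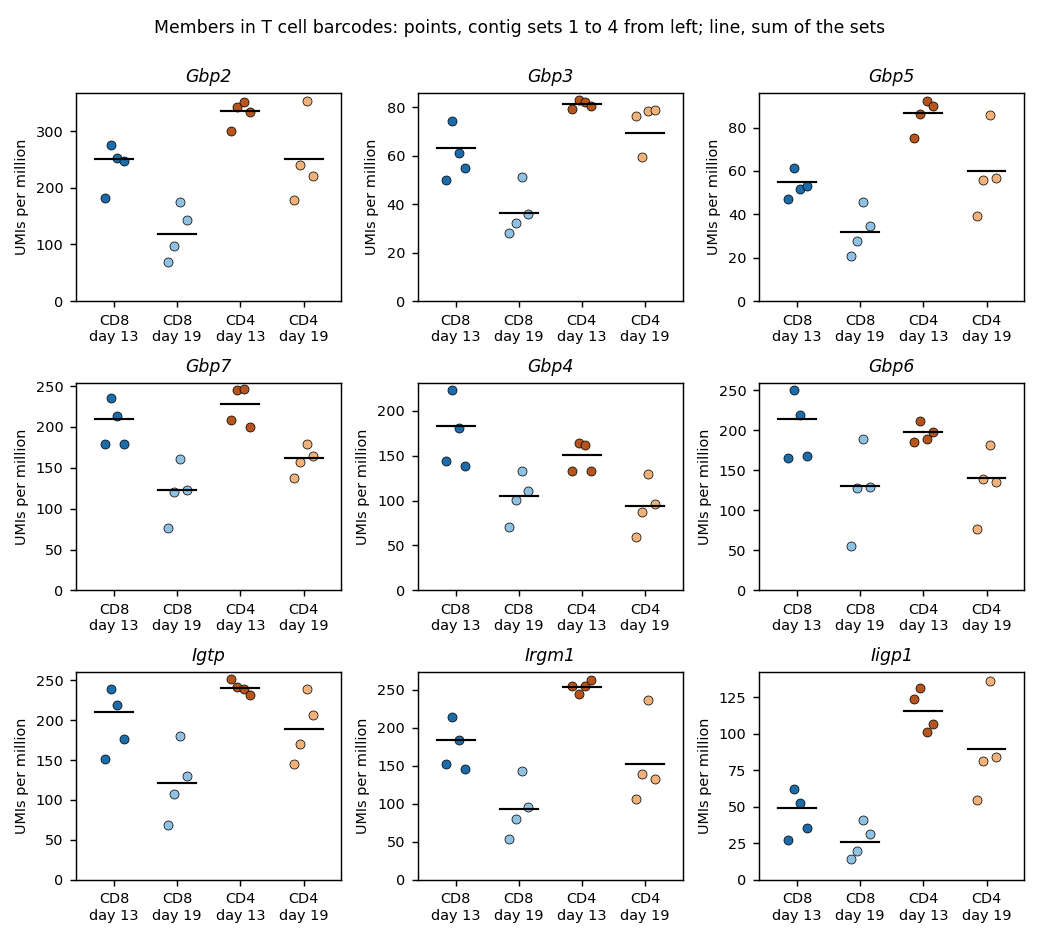
Level of each of the 9 genes in CPM in CD8 and CD4 T cell barcodes at day 13 and day 19. Each point is 1 contig set, and the line is the sum of the sets. For Gbp2 in CD8, the 4 day-13 sets lie between 181.5 and 275.0 CPM and the 4 day-19 sets between 69.54 and 174.0 CPM.

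Among the chromosome 3 genes, Gbp2 (ENSMUSG00000028270) differed most in CD8. Its level in CD8 sets 1 to 4 was 181.5, 275.0, 252.0 and 248.0 CPM at day 13 and 69.54, 96.77, 174.0 and 142.5 CPM at day 19. All 4 day-19 sets lay below all 4 day-13 sets. The log2 ratio of Gbp2 in CD8 was -1.08 (-1.15 to -1.02), and -1.30 without myeloid RNA. In CD4 the sets held Gbp2 at 299.4, 341.8, 351.0 and 334.0 CPM at day 13 and at 177.8, 240.0, 352.6 and 221.0 CPM at day 19. Set 3 of day 19 was as high as the day-13 sets, so the days overlapped. The CD4 log2 ratio of Gbp2 was -0.42 (-0.50 to -0.34), and it was -1.20 (-1.39 to -1.02) without myeloid RNA, the widest gap between both settings of any member.

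Gbp3 (ENSMUSG00000028268) was at 63.11 CPM at day 13 and 36.15 CPM at day 19 in CD8, a log2 ratio of -0.80 (-0.93 to -0.68). Its CD8 sets ran from 49.97 to 74.21 and from 27.96 to 50.99 CPM, so 1 day-19 set reached the lowest of day 13. In CD4, Gbp3 was at 81.40 and 69.26 CPM, the smallest CD4 ratio of the 9 genes, -0.23 (-0.39 to -0.08), and its sets did not overlap. Gbp5 (ENSMUSG00000105504), which in macrophages promotes inflammasome assembly, was at 54.86 and 31.87 CPM in CD8, a ratio of -0.78 (-0.92 to -0.65). In CD4, Gbp5 was at 86.68 and 60.11 CPM, a ratio of -0.53 (-0.69 to -0.37). Its sets lay apart in CD8 and overlapped in CD4. Gbp7 (ENSMUSG00000040253) was at 210.1 and 122.9 CPM in CD8 and at 227.8 and 161.5 CPM in CD4, with ratios of -0.77 (-0.84 to -0.71) and -0.50 (-0.59 to -0.40). The Gbp7 sets of the days lay apart in both classes.

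The chromosome 5 genes were lower at day 19 as well. Gbp4 (ENSMUSG00000079363) in CD8 sets 1 to 4 was at 144.3, 223.2, 180.5 and 138.2 CPM at day 13 and at 70.59, 100.4, 132.4 and 110.6 CPM at day 19. Its CD4 sets were at 133.1, 163.9, 161.5 and 132.4 CPM at day 13 and at 58.92, 86.96, 130.1 and 95.90 CPM at day 19. No day-19 set of either class reached a day-13 set of its class. The ratios of Gbp4 were -0.80 (-0.87 to -0.73) in CD8 and -0.67 (-0.79 to -0.55) in CD4. Gbp6 (ENSMUSG00000104713) was at 213.6 and 130.5 CPM in CD8 and at 197.4 and 140.0 CPM in CD4. Its ratios were -0.71 (-0.78 to -0.65) and -0.50 (-0.60 to -0.39), with overlapping sets in CD8 and separate ones in CD4. Gbp4 and Gbp6 are part of a cluster of near-identical copies with Gbp8, Gbp9 and Gbp10, and how the authors' counting divided reads shared between copies is a step that the sources used here do not state. Levels of single genes in the cluster are uncertain for that reason. These copies had similar CD8 log2 ratios, at -0.85 for Gbp8, -0.75 for Gbp9 and -0.75 for Gbp10.

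Of the regulatory IRGs, Irgm1 (ENSMUSG00000046879) had the clearest difference over both classes. Its level in CD8 sets 1 to 4 was 152.2, 213.7, 184.4 and 145.5 CPM at day 13 and 54.16, 80.30, 143.2 and 96.16 CPM at day 19. In CD4 sets it was 254.8, 244.4, 255.1 and 263.1 CPM at day 13 and 106.5, 138.6, 236.3 and 132.6 CPM at day 19. No day-19 set reached a day-13 set in CD8 or in CD4, although set 3 of day 19 came close in both. The log2 ratios were -0.99 (-1.06 to -0.91) in CD8 and -0.74 (-0.83 to -0.64) in CD4. Igtp (ENSMUSG00000078853) was at 209.9 and 121.5 CPM in CD8, a ratio of -0.79 (-0.86 to -0.72). In CD4, Igtp was at 240.3 and 189.4 CPM, a ratio of -0.34 (-0.43 to -0.25) that was -0.70 without myeloid RNA. Its sets overlapped in both classes, and it shares sequence with Irgm2.

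The effector Iigp1 (ENSMUSG00000054072) varied widely over CD8 sets. It was at 27.38, 61.95, 52.65 and 35.15 CPM in the day-13 sets and at 13.98, 19.71, 41.17 and 31.43 CPM in those of day 19. Set 3 of day 19 lay above sets 1 and 4 of day 13. The CD8 log2 ratio of Iigp1 was -0.94 (-1.09 to -0.80), and -1.29 without myeloid RNA. In CD4 it was at 123.8, 131.2, 101.6 and 106.6 CPM at day 13 and at 54.78, 81.38, 136.4 and 83.82 CPM at day 19, with overlap through set 3. The CD4 ratio of Iigp1 was -0.37 (-0.50 to -0.24).

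Over the 9 genes, all day-19 sets lay below all day-13 sets for 5 members in CD8 (Gbp2, Gbp4, Gbp5, Gbp7 and Irgm1), where 14.9% of all genes did so. In CD4 this held for 5 members (Gbp3, Gbp4, Gbp6, Gbp7 and Irgm1), where 8.15% did. In 3 of the 4 combinations of class and day, 8 or 9 members shared a highest set. In CD8 at day 13, set 2 was highest for 9 of 9 members. At day 19, set 3 was highest for 9 of 9 and set 1 lowest for all 9. The share of all genes with these highest and lowest sets is not given. Whether this order is particular to the members was not tested. The summed CD8 level ran from 1099 CPM in set 1 to 1634 CPM in set 2 at day 13, and from 457.8 CPM in set 1 to 1117 CPM in set 3 at day 19. In CD4 at day 19, set 1 was lowest and set 3 highest for 8 members each, with sums of 873.4 and 1619 CPM. At day 13 the CD4 members shared no order of sets, and the sums lay close together, at 1611, 1749, 1717 and 1635 CPM. Ifit1 followed the same CD8 order, from 161.8 to 337.6 CPM at day 13 and from 22.36 CPM in set 1 to 138.6 CPM in set 3 at day 19.

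**Figure D2:**
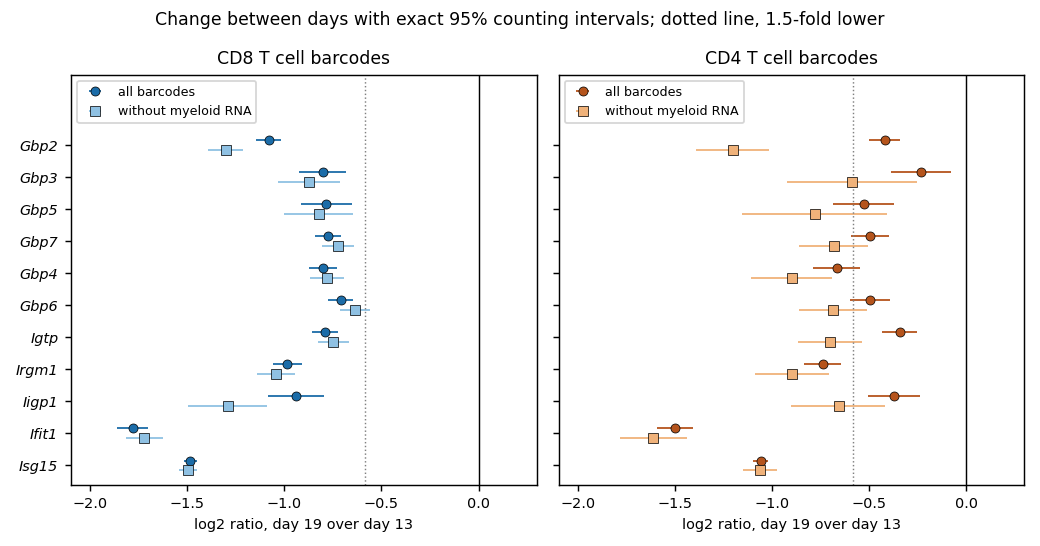
Log2 ratio of day 19 over day 13 for each gene in CD8 and CD4 T cell barcodes, with exact 95% counting intervals, for all barcodes and for those without myeloid RNA; the dotted line marks 1.5-fold lower. All points lie left of 0, and Ifit1 lies left of all 9 members in both classes.

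Over all barcodes the type I readouts differed further than the members. Ifit1 was at 263.2 CPM in CD8 at day 13 and at 76.50 CPM at day 19, a log2 ratio of -1.78 (-1.86 to -1.71), and at 368.6 and 130.4 CPM in CD4, a ratio of -1.50 (-1.59 to -1.41). Isg15 was at 1186 and 423.7 CPM in CD8 (-1.48) and at 1787 and 858.3 CPM in CD4 (-1.06). Over all barcodes these intervals overlap with those of no member in either class. In CD4 without myeloid RNA, Gbp2 at -1.20 (-1.39 to -1.02) was lower than Isg15 at -1.06 (-1.15 to -0.97), and these intervals overlap. Of 18 type I response genes with at least 100 UMIs, 18 in CD8 and 17 in CD4 were at least 1.5-fold lower, with medians of -1.25 and -1.08. Rsad2, an antiviral enzyme, had a log2 ratio of -1.95 in CD8 and -1.57 in CD4, and Irf7, which amplifies the type I response, -1.15 and -0.99.

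Other genes of the family were lower as well. Of 9 with enough UMIs in CD8, 8 were at least 1.5-fold lower, with a median of -0.82, and in CD4 5 of 8 were, with a median of -0.70. Ifi47, an IRG, was at 534.3 and 302.0 CPM in CD8, a ratio of -0.82. Irgq was the exception in CD8 at 0.15 (-0.41 to 0.71). Gbp2b, Gbp11 and Irgc1 had too few UMIs in both classes, and Irgq in CD4.

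A list of 15 interferon gamma response genes gave smaller differences. Of 14 with enough UMIs, 4 in CD8 and 2 in CD4 were at least 1.5-fold lower, with medians of -0.36 and -0.23. Irf1, a transcription factor that interferon gamma induces, had ratios of -0.64 in CD8 and -0.58 in CD4. Psmb8, an immunoproteasome subunit, was at 1003 and 939.4 CPM in CD8, a ratio of -0.09. Cxcl10, a chemokine that both interferons induce, had the lowest ratio of the list, -1.66 in CD8 and -1.34 in CD4, and Cxcl9, a chemokine made mainly by myeloid cells, had ratios of 0.11 (-0.02 to 0.23) and 0.32 (0.21 to 0.43).

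Among ligand, receptor and signalling genes the differences were mixed. Ifng, which encodes interferon gamma, was at 209.2 CPM in CD8 at day 13 and at 204.6 CPM at day 19, a log2 ratio of -0.03 (-0.09 to 0.02). In CD4 it was at 82.14 and 138.0 CPM, a ratio of 0.75 (0.62 to 0.88). Ifngr1, the ligand-binding chain of its receptor, had ratios of -0.38 in CD8 and -0.11 in CD4, and Ifnar1 of the type I receptor -0.34 and -0.54. Of 13 genes of this list with enough UMIs, 3 in CD8 were at least 1.5-fold lower and 1 higher. In CD4 1 was lower and 1 higher. Over all genes tested, 6.61% were lower and 5.25% higher in CD8, and 5.62% and 6.59% in CD4. The CD4 counts are near these shares. Stat2 was lower in both classes, with ratios of -1.06 and -0.79, while Irf8, a factor of B and myeloid cells and of activated T cells, was the one higher in CD8, at 0.62.

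The second comparison was between CD8 and CD4 barcodes of the same capture. Most members were lower in CD8, and Iigp1 differed most. Iigp1 was at 49.45 CPM in CD8 and 115.9 CPM in CD4 at day 13, and at 25.76 and 89.62 CPM at day 19. The log2 ratios of CD8 over CD4 were -1.23 (-1.35 to -1.11) and -1.80 (-1.95 to -1.64), and the gene was lower in CD8 in all 4 sets of each day. Without myeloid RNA these ratios were -1.61 (-1.78 to -1.44) and -2.24 (-2.51 to -1.98), so the gap was wider in the barcodes with least myeloid RNA. Iigp1 was the member with the largest such gap on both days.

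At day 13, 2 of 9 members, Iigp1 and Gbp5, were at least 1.5-fold lower in CD8, where 16.7% of 10321 genes were, a share in the range of the background. At day 19, 6 of 9 were, where 18.2% of 10233 genes were. These 6 were Iigp1, Gbp2 (-1.08), Gbp3 (-0.94), Gbp5 (-0.92), Irgm1 (-0.72) and Igtp (-0.64). Without myeloid RNA the day-19 ratios were -0.48 for Gbp2, -0.62 for Gbp3 and -0.50 for Gbp5, and 3 members, Iigp1, Gbp3 and Irgm1, were at least 1.5-fold lower, where 14.2% of 8586 genes were. At day 13 without myeloid RNA 1 member, Iigp1, was, where 10.1% of 9217 genes were, so the count is near the background. A member was lower in CD8 in all 4 sets in 7 of 9 cases at day 13, where 29.8% of genes were, and in 7 of 9 at day 19, where 35.4% were. Gbp4 alone was higher in CD8 in all 4 sets, at day 13 (23.2% of genes) and at day 19 (18.7%), with ratios of 0.29 (0.20 to 0.38) and 0.15 (0.04 to 0.26). Without myeloid RNA the Gbp4 ratios were -0.10 (-0.23 to 0.03) and 0.02 (-0.17 to 0.21), so the direction did not hold. Gbp6 had small ratios of 0.11 and -0.10, and without myeloid RNA -0.23 and -0.18.

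The third comparison set the members against Ifit1 and Isg15 in the same barcodes. To make detection comparable, each barcode was thinned to 5000 UMIs. An Ifit1 UMI was then found in 51.40% of CD8 and 61.10% of CD4 barcodes at day 13, and in 23.50% and 29.85% at day 19. Barcodes with Ifit1 held all 9 members at a higher level in both classes on both days, and in all 4 sets of each. At day 13 in CD8 the sum of the 9 was 2282 CPM with Ifit1 and 834.9 CPM without, a log2 ratio of 1.45 (1.41 to 1.49). It was 2374 and 956.8 CPM in CD4 at day 13, a ratio of 1.31. At day 19 the sums were 1641 and 668.4 CPM in CD8 (1.30) and 2111 and 893.4 CPM in CD4 (1.24). All 9 members were at least 1.5-fold higher in each of the 4 groups, where 5.03% of genes were in CD8 and 5.17% in CD4 at day 13, and 4.54% and 5.57% at day 19.

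Iigp1 had the highest ratio of the 9 in this split, except in CD4 at day 19, where it was at 1.25. In CD8 at day 13, Iigp1 was at 80.34 CPM with Ifit1 and 20.72 CPM without, a ratio of 1.95 (1.69 to 2.22). Gbp2 followed at 430.2 and 119.7 CPM, a ratio of 1.85 (1.74 to 1.96), and Gbp4 was lowest at 294.7 and 120.7 CPM, a ratio of 1.29 (1.17 to 1.40). In CD4 at day 13 the range was 1.01 for Irgm1 to 1.99 for Iigp1. At day 19 it was 0.91 for Gbp3 to 1.62 for Iigp1 in CD8 and 1.05 for Gbp6 to 1.38 for Gbp7 in CD4. Split by Isg15 in place of Ifit1, the members' medians were 1.84 in CD8 and 1.73 in CD4 at day 13, and 1.43 and 1.29 at day 19. Iigp1 in CD8 at day 13 was at 64.20 CPM with Isg15 and 6.94 CPM without, 9.25-fold. Irf1 gave 0.61 in the Ifit1 split of the same barcodes. The split was no smaller without myeloid RNA, at 1.51 and 1.88 for the sum in CD8 and CD4 at day 13.

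**Figure D3:**
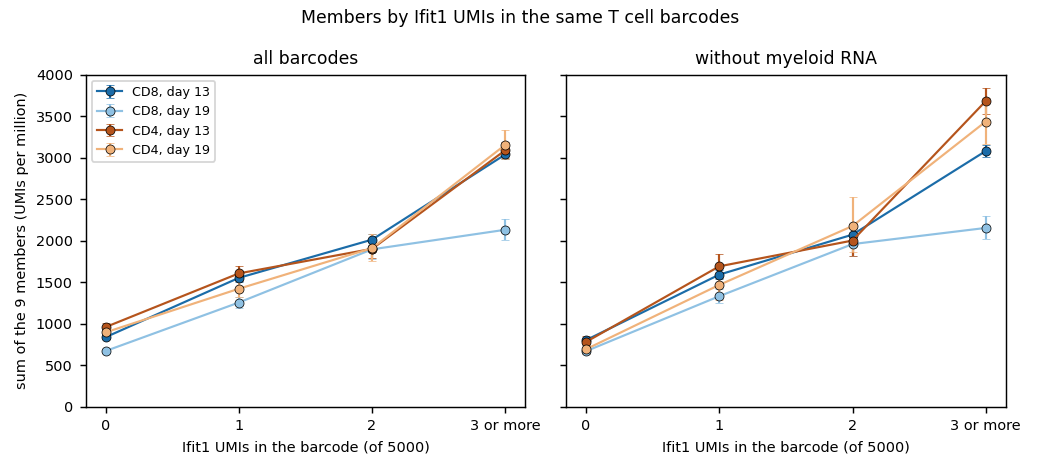
Summed level of the 9 genes in CPM by the number of Ifit1 UMIs in the same barcode, of 5000 UMIs, for all T cell barcodes and for those without myeloid RNA; lines join groups of barcodes of 1 class and day, and bars are exact 95% counting intervals. In CD8 at day 13 the level runs from 834.9 CPM at 0 Ifit1 UMIs to 3038 CPM at 3 or more.

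The members' level followed the number of Ifit1 UMIs and not only their presence. In CD8 at day 13 the sum was 834.9, 1550, 2011 and 3038 CPM in barcodes with 0, 1, 2 and 3 or more Ifit1 UMIs. In CD8 at day 19 it was 668.4, 1253, 1894 and 2130 CPM. CD4 barcodes gave 956.8, 1604, 1900 and 3089 CPM at day 13 and 893.4, 1419, 1909 and 3154 CPM at day 19. In CD8 the counting intervals of the days lay apart at 0, 1 and 3 or more Ifit1 UMIs, with the lower level at day 19, and overlapped at 2. In CD4 they overlapped at each count, and whether the classes differ was not tested. CD8 barcodes with 3 or more Ifit1 UMIs were 647 of 2959 at day 13 and 111 of 1800 at day 19.

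Barcodes with no UMI of Ifit1 and none of Isg15 still held the members. They were 19.30% of CD8 and 11.17% of CD4 barcodes at day 13, and 42.61% and 28.84% at day 19. At least 1 UMI of a member was found in 78.46% and 84.27% of them at day 13 and in 80.18% and 86.03% at day 19. Their summed level was 470.8 CPM in CD8 at day 13 and 453.2 CPM at day 19, and 559.6 and 588.6 CPM in CD4. The difference between the days seen in the whole classes was not seen in these barcodes, which carried 5.75% of the members' UMIs in CD8 at day 13 and 21.53% at day 19. Free RNA held the 9 genes at higher levels than these barcodes on both days, so a share of barcodes with a UMI does not show that the cells express the gene.

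Per barcode of 5000 UMIs, the median number of member UMIs was 5 in CD8 and 7 in CD4 at day 13, and 3 and 4 at day 19. It was 0 in 6.69% and 4.14% of barcodes at day 13 and in 11.06% and 7.05% at day 19. As a description over 2959 CD8 barcodes of day 13, which share a capture, the Spearman correlation of the summed members was 0.60 with Ifit1 and 0.69 with Isg15. It was 0.06 with Ifng, 0.03 with Actb and 0.17 with Malat1, an abundant nuclear RNA. Over 1800 CD8 barcodes of day 19 the values were 0.45, 0.56, -0.11, -0.09 and 0.21 in the same order. Each member was also related to the sum of the other 8, from 0.29 for Gbp3 to 0.56 for Gbp2 in CD8 at day 13.

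A UMI of Ifng in the barcode separated the members far less. In CD8 at day 13 the sum was 1717 CPM with Ifng and 1490 CPM without, a log2 ratio of 0.20 (0.17 to 0.24), and the ratio by set was 0.13, 0.37, -0.07 and 0.21. In CD4 at day 13 it was 0.01 (-0.07 to 0.10). At day 19 the sum was lower in barcodes with Ifng, 735.1 against 998.2 CPM in CD8 and 993.8 against 1343 CPM in CD4. The ratios were -0.44 (-0.51 to -0.37) and -0.43 (-0.54 to -0.33). All 4 sets of each class had a ratio below 0 at day 19, from -0.54 to -0.24 in CD8 and from -0.79 to -0.30 in CD4. All 9 members were below 0 in both classes at day 19, where 43.1% of genes were in CD8 and 51.3% in CD4, and Gbp2 had the lowest value in CD8, -0.79. Ifit1 was also lower in these barcodes, with ratios of -0.51 and -0.40.

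T cell states were then read from single marker genes in the thinned barcodes. Pdcd1 encodes the inhibitory receptor PD-1, Tcf7 and Slamf6 mark progenitor cells among exhausted CD8 T cells, and Havcr2 encodes TIM-3 of terminally exhausted ones. At day 13 the 413 CD8 barcodes with Pdcd1 and Tcf7 or Slamf6 but no Havcr2 held the 9 genes at 1847 CPM (1360 to 2065 over sets). The 136 with Pdcd1 and Havcr2 but neither progenitor marker held them at 878.7 CPM (732.1 to 977.9 over 3 sets). The ranges over sets did not overlap. The 1956 barcodes without Pdcd1 were at 1351 CPM (1128 to 1418) and the 454 with other combinations at 1508 CPM (816.9 to 2114). At day 19 the same groups were at 918.7 CPM (605.5 to 1345), 563.3 CPM (483.6 to 849.9), 913.7 CPM (470.1 to 1208) and 610.0 CPM (432.5 to 1001), and the ranges overlapped.

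The sum was lower at day 19 in each CD8 state. The log2 ratio of the sum was -1.01 (-1.09 to -0.92) with Tcf7 or Slamf6, -0.64 (-0.74 to -0.54) with Havcr2, -0.56 (-0.60 to -0.53) without Pdcd1 and -1.31 (-1.36 to -1.25) in the other Pdcd1 barcodes. In these states Ifit1 had ratios of -1.87, -2.19, -1.34 and -2.34. The shares of states differed between the days, with 247 Havcr2 barcodes and 123 of the progenitor markers at day 19, and the difference was seen inside each of these states. Gzmc or Gzmf, granzymes of strongly activated killer cells, marked 71 CD8 barcodes at day 13 at 785.9 CPM, against 1444 CPM in the rest (1119 to 1644 over the sets). Only 2 sets held 20 such barcodes, at 812.4 and 1259 CPM, so the sets overlapped and the level of the day lay below both. At day 19 the 313 such barcodes were at 451.7 CPM (376.8 to 720.0) and the rest at 881.0 CPM (487.4 to 1176). Barcodes with Mki67 or Top2a, which mark dividing cells, were at 1107 CPM (674.3 to 1494 over the sets) against 1535 CPM (1221 to 1683) at day 13 and at 624.0 CPM (382.5 to 822.0) against 881.4 CPM (525.2 to 1267) at day 19.

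Single members differed in how far these groups lay apart. Gbp2 was at 325.7 CPM in the day-13 CD8 barcodes with Pdcd1 and a progenitor marker and at 109.7 CPM in those with Havcr2, and Iigp1 was at 74.14 and 24.07 CPM. Gbp4 spanned less, 242.5 and 117.5 CPM. At day 19, Gbp2 was at 172.5 and 64.74 CPM in the same groups and at 44.67 CPM in barcodes with Gzmc or Gzmf. Gbp4 was at 95.16, 87.56 and 81.24 CPM there, nearly level. These values include barcodes with myeloid RNA. Over the whole CD8 class at day 19, Gbp2 was at 118.5 CPM with such barcodes and 94.23 CPM without.

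In CD4, barcodes with Foxp3, which marks regulatory T cells, held the 9 genes at 1890 CPM (1728 to 2092) at day 13 and 1447 CPM (1118 to 1648) at day 19. Those with Pdcd1 and no Foxp3 were at 1584 CPM (1418 to 1679) and 963.7 CPM (839.1 to 1406 over 3 sets), and those with neither at 1639 CPM (1385 to 1712) and 1252 CPM (834.1 to 1799). The log2 ratios between the days were -0.39, -0.72 and -0.39. Without myeloid RNA the levels were 2180 and 1449 CPM with Foxp3, 1737 and 864.4 CPM with Pdcd1, and 1815 and 1005 CPM with neither, each further apart than with it. Myeloid RNA was in 45.50% to 56.35% of these groups at day 13 and in 64.12% to 67.87% at day 19. Dividing CD4 barcodes were at 1653 CPM and the others at 1696 CPM at day 13, and at 1075 and 1266 CPM at day 19, with overlapping ranges over sets on both days. Without myeloid RNA the day-13 direction turned, to 1936 and 1863 CPM.

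**Figure D4:**
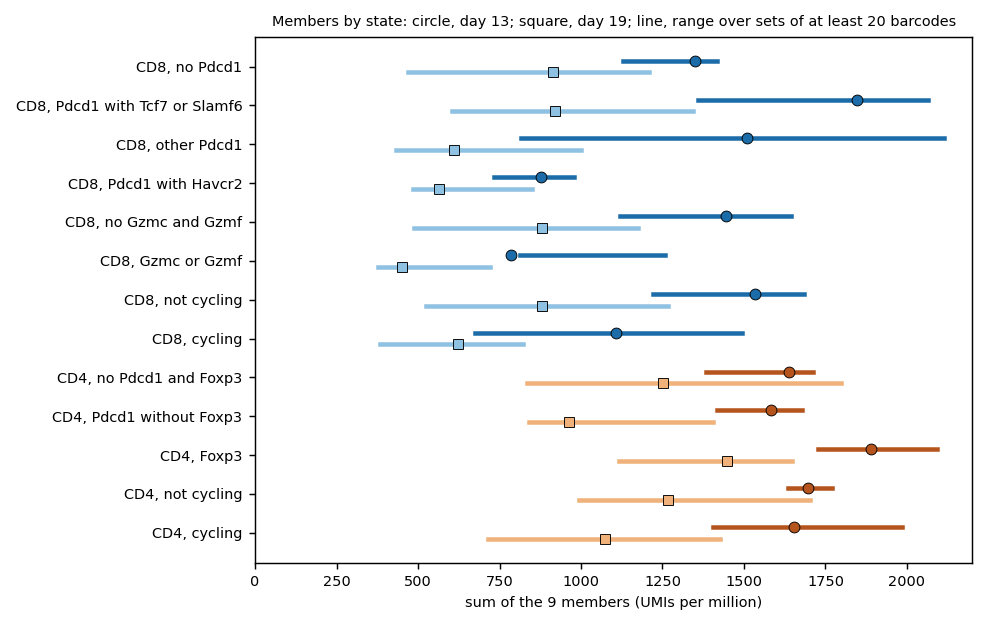
Summed level of the 9 genes in CPM by marker state of CD8 and CD4 T cell barcodes at day 13 and day 19; points are sums over the day and lines the range over contig sets with at least 20 barcodes. For CD8 with Gzmc or Gzmf at day 13 only 2 sets had 20 barcodes, and the point at 785.9 CPM lies outside their range of 812.4 to 1259 CPM.

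Barcodes without Cd3 UMIs outside the contig sets were clustered without the members, their family and the interferon lists, and named from markers. They come out of a CD3+ sort and are no sample of the tumor's myeloid cells. Monocyte-like barcodes had the highest level of the named groups on both days, 3161 CPM at day 13 (184 barcodes) and 2702 CPM at day 19 (48). Mature dendritic-like ones followed on both days, at 1627 CPM (114) and 1450 CPM (23). Below these the order of the named groups differed between the days. At day 13 it was NK-like at 1192 CPM (26), macrophage-like at 1051 CPM (171), type 1 dendritic-like at 740.9 CPM (43), microglia-like at 675.2 CPM (104) and plasmacytoid dendritic-like at 427.8 CPM (20). At day 19 it was macrophage-like at 1191 CPM (66), plasmacytoid dendritic-like at 969.4 CPM (10), microglia-like at 547.3 CPM (27), type 1 dendritic-like at 531.0 CPM (18) and NK-like at 402.6 CPM (27). Type 2 dendritic-like barcodes were at 273.3 CPM (28) and 341.1 CPM (10), the lowest level on each day. Several neighbours in these orders had overlapping counting intervals. At day 13 these were NK-like with macrophage-like, and type 1 dendritic-like with microglia-like. At day 19 they were macrophage-like with plasmacytoid dendritic-like, and the microglia-like, type 1 dendritic-like, NK-like and type 2 dendritic-like groups, each with the next.

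Other clusters stayed unnamed. One of 180 barcodes led by Cd209a, which met only 2 of the 6 type 2 dendritic markers, was at 2562 CPM at day 13 and 2798 CPM at day 19, a log2 ratio of 0.13 (0.03 to 0.22). One of 171 barcodes met the B cell markers Cd79a, Cd79b and Ms4a1 but also held the dendritic markers Itgax and Ccl17 at least 2-fold higher, and was left without a name after its genes were seen. It was at 1270 CPM at day 13 and 1499 CPM at day 19, a ratio of 0.24 (0.12 to 0.36), with an interval overlapping that of the NK-like group at day 13 and that of the mature dendritic-like group at day 19. A cluster of 57 barcodes that met plasmacytoid and type 2 dendritic markers alike was at 765.2 and 816.7 CPM, and one of 33 that met choroid plexus and microglia markers at 908.5 and 765.0 CPM. With a clustering resolution of 0.5 in place of 1 the type 2 dendritic-like group was a larger cluster led by Cd209a, with 181 barcodes at day 13, whose day-13 level was 2064 CPM in place of 273.3 CPM.

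Which members made up this level differed between lineages. In CD8 barcodes without myeloid RNA at day 13, Gbp4 and Gbp6 on chromosome 5 gave 29.69% of the UMIs of the 9 genes, and in CD4 25.06%. Over both days together, they gave 20.62% in plasmacytoid dendritic-like, 18.60% in NK-like, 16.47% in macrophage-like, 9.75% in microglia-like, 5.69% in mature dendritic-like, 4.58% in monocyte-like and 0.965% in type 1 dendritic-like barcodes. Gbp4 and Gbp6 gave 1.79% in type 2 dendritic-like ones, from 2 UMIs. The order of these shares can differ by day. In NK-like barcodes Gbp4 and Gbp6 had 19 and 18 of 235 member UMIs at day 13. At day 19 they had 19 and 8 of 109 there. The chromosome 3 genes gave 69.11% in monocyte-like and 70.38% in mature dendritic-like barcodes, against 39.05% in CD8 and 37.36% in CD4. Near-identical copies share reads with Gbp4 and Gbp6, and at day 13 Gbp8 and Gbp10 were lower in macrophage-like barcodes than in CD8 as well, with log2 ratios of -0.90 and -4.80 (-7.08 to -3.25, from 3 UMIs). At day 19 the Gbp8 ratio was 0.78 (0.36 to 1.18).

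**Figure D5:**
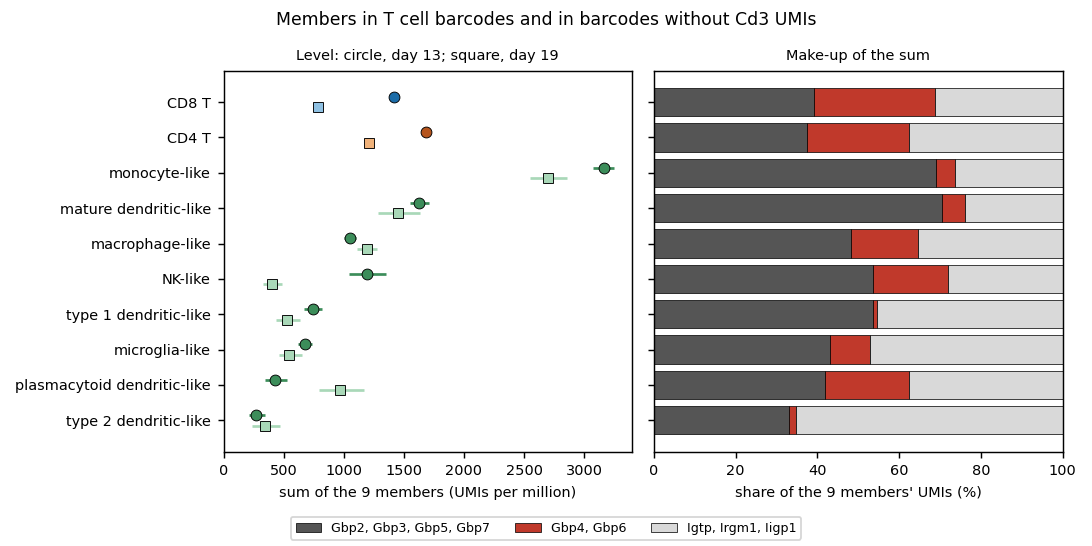
Level of the 9 genes by class on each day for T cell barcodes and for barcodes without Cd3 UMIs named by markers. Circles are day 13 and squares day 19. The share of each gene group among the members' UMIs is that of day 13 without myeloid RNA for T cells. For the other classes it is over both days together. Monocyte-like barcodes are at 3161 CPM at day 13 and 2702 CPM at day 19. Gbp4 and Gbp6 give 4.58% of their member UMIs.

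Monocyte-like barcodes were compared with CD8 barcodes without myeloid RNA at day 13. Gbp2 was at 1262 CPM against 232.3 CPM, a log2 ratio of 2.44 (2.37 to 2.52). Gbp5 was at 303.6 against 46.74 CPM, Gbp3 at 283.4 against 57.82 CPM (2.29) and Irgm1 at 522.4 against 175.1 CPM (1.58). Together with Gbp7, 5 members were at least 1.5-fold higher in the monocyte-like barcodes, where 17.8% of genes were. Gbp4 (-1.22) and Gbp6 (-2.11) were lower by that margin, where 53.9% of genes were. In macrophage-like barcodes no member was at least 1.5-fold higher (19.4% of genes) and 4 were lower (38.1%): Gbp4 at -1.79, Igtp at -1.07, Gbp6 at -0.85 and Gbp7 at -0.77. Irgm1 was slightly higher there, at 230.0 against 175.1 CPM, a ratio of 0.39 (0.24 to 0.54). At day 19, where the CD8 level was lower, 5 members were at least 1.5-fold higher in macrophage-like barcodes (21% of genes): Iigp1 at 2.09, Gbp2 at 1.76, Gbp3 at 1.57, Irgm1 at 1.24 and Gbp5 at 0.68. Only Gbp6, at -0.60, was lower by that margin (36.2%). In monocyte-like barcodes at day 19 the ratio of Gbp4 was -0.05 (-0.50 to 0.36). That of Gbp6 was -1.42 (-2.07 to -0.85).

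The macrophage-like class was made of clusters that the days filled unequally. A cluster led by Gpnmb and Spp1 held 93 of its barcodes at day 13 and 4 at day 19. It met 3 of 8 macrophage markers (Apoe, Ms4a7 and Cd68) and 2 of 6 monocyte markers (Ly6c2 and Chil3). A cluster led by Ms4a7 and Clec4n held 78 and 62, and met 6 of 8 macrophage markers. The class as a whole held the 9 genes at 1051 CPM at day 13 (171 barcodes) and 1191 CPM at day 19 (66 barcodes), a log2 ratio of 0.18 (0.06 to 0.30). Within the cluster held by both days the sum was 1076 and 1168 CPM, a ratio of 0.12 (-0.02 to 0.26), which counting error covers. Ifit1 in that cluster was at 168.1 and 102.6 CPM, -0.71 (-1.16 to -0.28), and in the class at 209.8 and 112.1 CPM, -0.90. In the class, Iigp1 was at 44.50 and 80.31 CPM, a ratio of 0.85 (0.32 to 1.38), and Gbp2 at 216.2 and 319.7 CPM, 0.56 (0.31 to 0.81). Within the shared cluster these ratios were 0.52 (-0.11 to 1.16) and 0.14 (-0.14 to 0.42). Gbp5 was at 65.31 and 42.43 CPM in the class, -0.62 (-1.27 to -0.01), and its ratio in the shared cluster was -0.92 (-1.66 to -0.22). In the class only Iigp1 was at least 1.5-fold higher (5.93% of genes) and only Gbp5 at least 1.5-fold lower (6.05%), which are shares of 9 near the background. Monocyte-like barcodes were at 3161 and 2702 CPM, a ratio of -0.23 (-0.32 to -0.14). NK-like barcodes were at 1192 CPM (26 barcodes) and 402.6 CPM (27 barcodes), a ratio of -1.57 (-1.91 to -1.23), with Ifit1 at 131.9 and 7.39 CPM, the latter from 2 UMIs. T cell genes marked this cluster too, with Trbc1, Trbc2 and Lat at least 2-fold higher than in the other barcodes without Cd3.

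The Ifit1 split was smaller in some of these lineages. At day 13 the sum of the 9 was 1398 CPM in macrophage-like barcodes with Ifit1 and 901.1 CPM in those without, a log2 ratio of 0.63 (0.45 to 0.82). Gbp2 there was at 242.5 and 217.6 CPM, a ratio of 0.16 (-0.26 to 0.58), which counting error covers. In monocyte-like barcodes the sum was 3617 and 1788 CPM, a ratio of 1.02 (0.87 to 1.16), and in microglia-like ones, of which 15 had Ifit1, 1280 and 447.2 CPM, 1.52 (1.15 to 1.88). The CD8 value without myeloid RNA was 1.51 (1.46 to 1.56), and whether the lineages differ was not tested.

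The pattern over cell groups was last compared with that of every other gene. Over 13 states and lineages of day 13 with at least 50 barcodes, which share a capture, the mean log2 level of the members correlated most with Parp10 (Pearson r 0.94), followed by Ubr4 (0.90), Tnip1 (0.90), Ascc3 (0.89), Samhd1 (0.88), BC051226 (0.88), Ifit1 (0.87), Zbp1 (0.86), Selenow (0.86) and Rnf213 (0.85). Isg15 had 0.43 and Ifng 0.03. Igtp (0.86) and Gbp7 (0.84) lay closest to the members' mean and Gbp6 (0.28) furthest at day 13. At day 19 only the T cell states and the macrophage-like class held at least 50 barcodes. The groups therefore differ between the days, and the values of the days are not a like comparison. The leading genes are the first 10 of 10746 genes compared at day 13 and of 10281 at day 19. Over 8 groups of day 19 the leading genes were Samhd1 (0.99), Arhgap25 (0.99), Tob2 (0.98), Dapp1 (0.98), Hnrnph2 (0.98), Gng12 (0.98), Avpi1 (0.98), Bcl3 (0.98), Smpdl3a (0.98) and Clybl (0.97), with Isg15 at 0.93, Ifit1 at 0.92 and Ifng at -0.58. Of the members, Iigp1 (0.99) and Gbp2 (0.97) then lay closest and Gbp4 (0.15) furthest. Each member is part of the mean it is compared with. On the log2 scale Iigp1 ran from 3.703 to 6.962 over these groups and Gbp4 from 6.345 to 6.869. The T cell states include their barcodes with myeloid RNA. Samhd1, which depletes nucleotides and restricts viruses, was the only gene among the first 10 on both days.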

How the data were processed

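Per the submitters' processing notes, the authors used bcl2fastq 2.20, Cell Ranger 4.0.0, STAR 2.7.5c, Seurat and R 4.1.2 with the mm10 genome. As deposited, the values are UMI counts with no normalization, for every barcode, with 144565182 gene UMIs at day 13 and 81224453 at day 19. TCR contig tables, 4 per day, were used only for the barcodes they list.

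Barcodes were filtered as given in the report. Counts were summed per class, day and contig set, and ratios of sums carry exact 95% Poisson intervals. These cover counting error only, and with 1 capture per day no test was run. Genes needed at least 100 UMIs in both sums together. States and same-barcode splits used barcodes thinned to 5000 UMIs, and state levels used full depth. Barcodes without Cd3 UMIs were clustered with scanpy 1.11.5 (2000 variable genes, 30 components, 15 neighbours, Leiden resolution 1) and named where at least 3 markers were at least 2-fold higher; 3 such clusters with mixed markers were left unnamed after their genes were seen. No doublet caller was run, and barcodes with at least 3 myeloid UMIs were left out as an alternative. The text names the 9 members, Ifit1, Isg15, at most 6 genes of each list, and the 10 genes most like the members on a log2(CPM + 1) scale. Members and lists were chosen with earlier results of these data known. Steps across all genes were tested on simulated data, with Python 3.11.15, numpy 2.4.6, pandas 2.3.3, scipy 1.17.1 and matplotlib 3.10.9. Sequences are from RefSeq (GRCm38.p6). Values of 1 listed gene are not reported here.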

Additional observations from a re-analysis of the deposited data

Results flagged for a closer look

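Gbp3 in CD4 barcodes at day 19 was at 59.28 CPM in contig set 2, apart from 76.49, 78.25 and 78.75 CPM in the other sets. The gap to the nearest set was 0.884 of the whole range, above the critical value for 4 values. In all, 48 groups of 4 sets were examined, and chance alone sets about 1 in 20 such groups apart. The sets are parts of 1 capture and not samples of the study.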

How the results depend on the processing

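Of the main values under all alternatives, 219 stayed within their limits and 31 moved, and of the values for single genes and groups 1094 stayed, 83 moved and 4 reversed; the causes were not tested. With a fold of 2 in place of 1.5, the members lower at day 19 numbered 1 in CD8 and 0 in CD4, those lower in CD8 than in CD4 1 at day 13 and 2 at day 19, and the genes so called 176, 130, 992 and 1023 (from 703, 530, 1720 and 1867). A minimum of 30 UMIs gave 851 genes in CD4, and one of 300 gave 327 there and 1116 and 1231 between the classes at day 13 and day 19. Without barcodes holding myeloid RNA, 9 members in CD4 were at least 1.5-fold lower at day 19 (from 2), and 1 at day 13 (10.1% of genes) and 3 at day 19 (14.2%) were lower in CD8 than in CD4. In that setting the day-19 class median was -0.50, and the Ifit1 split medians in CD4 were 1.78 at day 13 and 1.90 at day 19. A minimum of 1000 UMIs gave 4 members lower in CD4 at day 19 and 1 lower in CD8 than CD4 at day 13, Ifit1 split medians of 1.03 in CD8 and 0.80 in CD4 at day 13, and sums without Cd3 of 1564 CPM at day 13 and 1339 CPM at day 19. The member count at day 13 between classes was also 1 without cycling barcodes and with thinning. The sum without Cd3 was 1646 CPM with thinning at day 13, and 1494 CPM at day 19 also without Trac, Trbc1 and Trbc2. Of CD8 over CD4, the ratio of Gbp4 at day 13 reversed to -0.10 without myeloid RNA, that of Gbp6 to -0.0894 with the lower minimum and -0.23 without myeloid RNA, and that of Gbp6 at day 19 to 0.0503 without cycling barcodes. Leaving out 1 contig set at a time gave day medians of -0.95 to -0.68 in CD8 and -0.56 to -0.43 in CD4. The members lower in CD4 then numbered 1 without set 2 of day 19 to 4 without set 3 of day 19, and those lower in CD8 than CD4 at day 13 1 without set 3 of day 13 to 3 without set 2 of day 13. The day ratio of the macrophage-like class within 1 cluster was added after seeing the data. Levels of single lineages were not run with the lower minimum. No paired analysis between the days was possible because each day is 1 capture and the contig sets carry no pairing between days. Within a day, classes and same-barcode splits were compared inside each contig set, as a description. Free RNA and near-identical gene copies limit single levels, and counts set the precision of the smaller lineages.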
